A study of Mus musculus with 2 samples.

Results

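Nkx2-3, Nkx2-5 and Nkx2-6 are the NK2 homeobox genes of the heart, pharynx and gut mesoderm, and they were followed through the Mesp1 lineage of the mouse embryo at embryonic day 9.5 (E9.5). They are 3 of the 27998 features counted. They were chosen by symbol, and because their measured levels in these same libraries differed, so their levels and ratios are descriptions and carry no test. The data are 2 droplet libraries that count the 3′ ends of transcripts as unique molecular identifiers (UMIs). Both came from pooled Swiss Webster embryos that carried Mesp1Cre, a Cre driver acting in early mesoderm, and 1 Rosa26-GFPflox allele, which turns cells of that lineage green. The library labelled Ctrl had no other allele, and the library labelled cKO was also Tbx1flox/flox, so that Cre should remove the T-box factor Tbx1 in the same lineage. Pharyngeal apparatus and heart were dissected, and live GFP-positive cells were taken by sorting. The study lists 2 embryos for each library, with more somites in those of the library labelled cKO. Embryonic stage can thus not be told apart from the label. Each group had 1 library, therefore no difference has a replicate check and every comparison is between these libraries and not between genotypes.

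NK2 proteins bind DNA through a homeodomain. Nkx2-5 is needed for the heart tube to form chambers and is an early marker of cardiac progenitors and cardiomyocytes. Nkx2-6 is transcribed in pharyngeal pouches and the outflow region, where it overlaps Nkx2-5, and Nkx2-3 is best known from gut and spleen mesenchyme and from pharyngeal arches. The cardiopharyngeal mesoderm holds progenitors of both the heart and the branchiomeric muscles of the face and neck, and Tbx1 is one of its main regulators.

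The matrix labelled Ctrl held 7418 barcodes with a median of 16786 UMIs, and the matrix labelled cKO 10281 with a median of 14341. After filters 6591 and 8969 cells were kept, which formed 25 clusters, 21 of them named from marker lists with names ending in -like. Both libraries held cells with Xist and cells with Y-linked UMIs, so each came from embryos of both sexes. The libraries shared 15 barcodes. The count of the targeted gene went against the labels, since Tbx1 was higher in the library labelled cKO over all kept cells (log2 ratio 0.76) and in the multilineage primed progenitors (MLP-like, 1.24), and close to even in branchiomeric muscle progenitors (BrM-like, −0.16). A count of 3′ ends cannot tell an intact Tbx1 transcript from a recombined one. Hence both groups are called by the labels of their libraries. Erythroid-like cells were found in the library labelled cKO alone (151 cells).

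In the GRCm38.p6 build, Nkx2-3 (ENSMUSG00000044220) lies at chr19:43612325-43615892, Nkx2-5 (ENSMUSG00000015579) at chr17:26838664-26844988 and Nkx2-6 (ENSMUSG00000044186) at chr14:69171802-69175540. Thus no 2 of them are neighbours. The RefSeq promoter table of that build matched Nkx2-3 and Nkx2-5. Their 250 bases before the start are shown because the targeted gene encodes a T-box factor and the members are NK2 factors, so that the letters both families bind could be looked for. The Nkx2-3 window is chr19:43612075-43612324 on the plus strand and the Nkx2-5 window chr17:26841566-26841815 on the minus strand, the latter inside the annotated span of the gene. Capitals mark a CCAAT box, read as CCAAT or its complement ATTGG, which overlap here.
Nkx2-3: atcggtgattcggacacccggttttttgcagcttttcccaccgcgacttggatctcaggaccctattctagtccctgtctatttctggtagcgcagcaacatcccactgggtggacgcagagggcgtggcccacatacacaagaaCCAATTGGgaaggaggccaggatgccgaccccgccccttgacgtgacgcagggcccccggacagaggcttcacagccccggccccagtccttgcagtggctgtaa
Nkx2-5: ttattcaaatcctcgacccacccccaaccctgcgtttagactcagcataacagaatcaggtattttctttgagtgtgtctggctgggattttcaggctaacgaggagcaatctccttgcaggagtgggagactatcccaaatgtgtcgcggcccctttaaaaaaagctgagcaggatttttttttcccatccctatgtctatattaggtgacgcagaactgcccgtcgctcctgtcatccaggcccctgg

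Neither window held the T-box letters AGGTGT, the NK2 letters TNAAGTG or the GATA letters AGATAA on either strand. These were found in 11.8%, 10.1% and 9.99% of the 32851 promoter windows of the same length in the table. The CCAAT box of the Nkx2-3 window occurs in 33.8% of them. The windows were 60% (Nkx2-3) and 49.2% (Nkx2-5) G or C. An absent match says only that these letters are not in this window.

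Over all kept cells, the library labelled cKO had more Nkx2-3 and less Nkx2-6, with Nkx2-5 between them. Nkx2-3 went from 68 UMIs in the library labelled Ctrl to 837 in the library labelled cKO, which on the counts-per-million scale (CPM) is 0.579 (95% interval 0.449 to 0.734) against 6.13 (5.72 to 6.56), a log2 ratio of 3.40 (3.05 to 3.78). Nkx2-5 went from 979 to 1522 UMIs, or 8.33 against 11.1 CPM, a log2 ratio of 0.42 (0.30 to 0.54). Nkx2-6 went from 311 to 75 UMIs, or 2.65 against 0.549 CPM, a log2 ratio of −2.27 (−2.65 to −1.90). All intervals are exact 95% intervals that cover counting error only, and ratios are cKO over Ctrl. The make-up of the kept cells also differed, and the levels were therefore read within classes.

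Across the 11 classes with at least 50 cells in each library, the 3 genes went different ways. Nkx2-3 had the higher CPM in the library labelled cKO in 10 classes and in 5 of these the library labelled Ctrl had no UMI. In the remaining class, paraxial mesoderm-like, both were at 0. Nkx2-5 was higher in 8 classes and lower in 3, and Nkx2-6 was lower in 8 and higher in 2, where it had at most 4 UMIs. The interval of the log2 ratio lay above 0 in 7 classes for Nkx2-3 and in 5 for Nkx2-5. It lay below 0 in 1 class for Nkx2-5 and in 4 for Nkx2-6. The plot of levels by class shows each value with its interval.

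**Figure D1:**
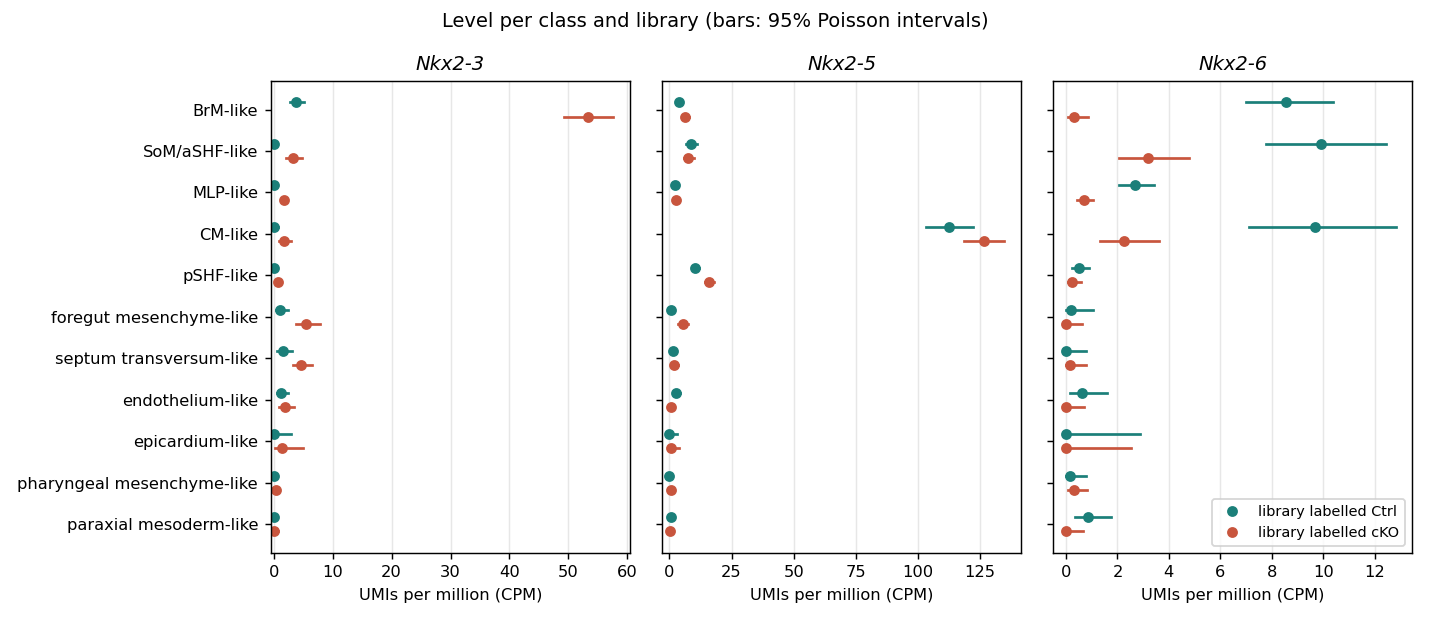
Level of Nkx2-3, Nkx2-5 and Nkx2-6 in each cell class, in CPM with exact 95% intervals (counting error only), for the library labelled Ctrl and the library labelled cKO, 1 library each. Nkx2-5 stands highest in CM-like cells in both libraries (112 and 126 CPM), Nkx2-3 in BrM-like cells of the library labelled cKO (53.3 CPM), and Nkx2-6 is spread over CM-like, SoM/aSHF-like and BrM-like cells in the library labelled Ctrl.

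Nkx2-3 was above all a gene of BrM-like cells, whose named markers include Tcf21, Msc, Lhx2 and Myf5. The 692 BrM-like cells of the library labelled Ctrl held 46 Nkx2-3 UMIs, 3.83 CPM (2.80 to 5.10). The 836 BrM-like cells of the library labelled cKO held 651, or 53.3 CPM (49.3 to 57.6). The ratio was 13.9-fold (10.3 to 19.2), a log2 ratio of 3.80 (3.37 to 4.26). BrM-like cells carried 67.6% of all Nkx2-3 UMIs in the library labelled Ctrl and 77.8% in the other, while they were 10.5% and 9.32% of the kept cells. The difference was spread over many cells. After each cell was thinned to 5000 UMIs, Nkx2-3 was detected in 12 of 684 cells (1.75%, 0.91 to 3.04) and in 152 of 832 (18.3%, 15.7 to 21.1), with 8 and 4 shallower cells left out. Without thinning the shares were 4.77% and 33.5%, at median depths of 16333 and 13808 UMIs. Cells with 2 or more Nkx2-3 UMIs numbered 9 and 164, and the highest count in a cell was 5 and 8.

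Paraxial mesoderm-like cells, which should lack the gene, gave the background. No Nkx2-3 UMI was found in 418 and 331 of them, at median depths of 18639 and 15559 UMIs. After thinning, 0 of 415 and 0 of 329 had one. A limit of 3 counts of the total comes to 0.723% and 0.912%, and the exact binomial upper bounds are 0.885% and 1.11%, which limit cells with a UMI and not cells expressing the gene. The 151 erythroid-like cells held none either. Thus the BrM-like share was above this background in both libraries.

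The 2 clusters of BrM-like cells had the same order. In cluster 8, led by Tlx1, Edn1 and Scx besides Nkx2-3, its level was 3.02 CPM in 383 cells against 60.1 CPM in 430, a log2 ratio of 4.31 (3.59 to 5.14). In cluster 10, led by Col25a1, Lhx2 and Myf5, it was 4.46 CPM in 309 cells against 47.9 CPM in 406, a log2 ratio of 3.43 (2.88 to 4.02). The intervals of the log2 ratios overlap. All NK homeobox genes had been kept out of the clustering, so the clusters were not drawn by these genes. Cells with Xist and no Y-linked UMI, which come from a female embryo, had 4.13 against 48.9 CPM, a log2 ratio of 3.56 (3.01 to 4.18). Cells with Y-linked UMIs and no Xist had 3.88 against 60.1 CPM, a log2 ratio of 3.95. The difference was hence present in both sets of cells. With 2 embryos per library, each set comes from a single embryo in each library. Sex and embryo can therefore not be told apart.

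Outside BrM-like cells Nkx2-3 was low. In the library labelled Ctrl, BrM-like was followed by septum transversum-like (1.51 CPM, 0.607 to 3.11), endothelium-like (1.24) and foregut mesenchyme-like cells (1.14), and the interval of the first of these overlaps that of BrM-like cells. In the library labelled cKO BrM-like cells stood clear of all others, and foregut mesenchyme-like (5.52 CPM, 3.77 to 7.79), septum transversum-like (4.66, 3.21 to 6.54) and SoM/aSHF-like cells (3.21, 2.05 to 4.77) followed with overlapping intervals. SoM/aSHF-like cells, of somatic mesoderm and anterior second heart field type, went from 0 to 24 UMIs, which is at least 7.97-fold higher when the library labelled Ctrl is set at its floor of 3 counts (0.402 CPM). The other classes at 0 in the library labelled Ctrl were posterior second heart field (pSHF-like, 14 UMIs in the library labelled cKO, at least 5.35-fold), cardiomyocytes (CM-like, 13 UMIs, at least 2.86-fold), pharyngeal mesenchyme-like (5 UMIs) and epicardium-like cells (2 UMIs). All 13 UMIs of CM-like cells lay in cluster 19, in 6 cells, of which 1 held 6. MLP-like cells held 1 against 51 Nkx2-3 UMIs, a log2 ratio of 5.34 (2.80 to 10.67), though the level stayed at 1.75 CPM.

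Nkx2-6 went the opposite way in BrM-like cells. It went from 103 UMIs to 4, or from 8.57 (6.99 to 10.4) to 0.328 CPM (0.0892 to 0.839), which is 26.2-fold lower (9.91 to 97.8), a log2 ratio of −4.71 (−6.61 to −3.31). After thinning it was detected in 33 of 684 cells (4.82%, 3.34 to 6.71) and in 1 of 832 (0.12%). Without thinning the shares were 10.1% and 0.478%. The background in paraxial mesoderm-like cells was 1.20% and 0 of 331 cells without thinning, so the share in the library labelled cKO was not above background. Both BrM-like clusters went the same way. Cluster 8 held most of it, with 15.9 CPM (12.7 to 19.6) against 0.559, and cluster 10 had 2.82 CPM (1.70 to 4.41) against 0.146. Xist-only cells had 51 UMIs against 1, and Y-only cells 49 against 0.

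Of the 3 genes in BrM-like cells, 1 was at least 2-fold higher and 1 at least 2-fold lower. The features that passed the filter of 5 CPM in a library and 30 UMIs over both were 9363, of which 1.57% were that much higher and 5.66% that much lower, and nothing is read from the comparison, since the members were chosen on these ratios. Nkx2-5 was the one in between, with 45 against 76 UMIs, 3.74 (2.73 to 5.01) against 6.22 CPM (4.90 to 7.79), and a log2 ratio of 0.73 (0.18 to 1.30). It was 0.20 (−0.54 to 0.95) in Xist-only and 1.45 (0.43 to 2.56) in Y-only cells, and the interval also reached below 0 with presumed doublets kept (0.45), all barcodes (0.43) and classes from the markers of each cell (0.86). Among the 3′ UMIs of the 3 genes together in BrM-like cells, which were not scaled by transcript length, Nkx2-3 made up 23.7% in the library labelled Ctrl and 89.1% in the library labelled cKO, and Nkx2-6 made up 53.1% and 0.547%.

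Other measures of the BrM-like class moved with these values. The summed level of its 8 markers was 959 CPM in the library labelled Ctrl and 495 in the library labelled cKO, with UMIs of all 8 in both. The erythroid list summed to 1.16 and 142 CPM, with 3 and 7 of 8 markers having a UMI. Of 7 epithelial markers 7 and 6 had a UMI, with Cldn7 at 0 in the library labelled cKO, and they summed to 23.7 and 34.6 CPM. The 6 neural crest markers all had UMIs and summed to 40.3 and 22.5 CPM. Their part in the result was not tested. The level of Nkx2-6 in the library labelled Ctrl depended on where the class was drawn. Without integration the class had 520 cells and 4.55 CPM, from 45 UMIs against 4, and the log2 ratio was −3.46. With clusters of the first pass it was −3.49.

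**Figure D2:**
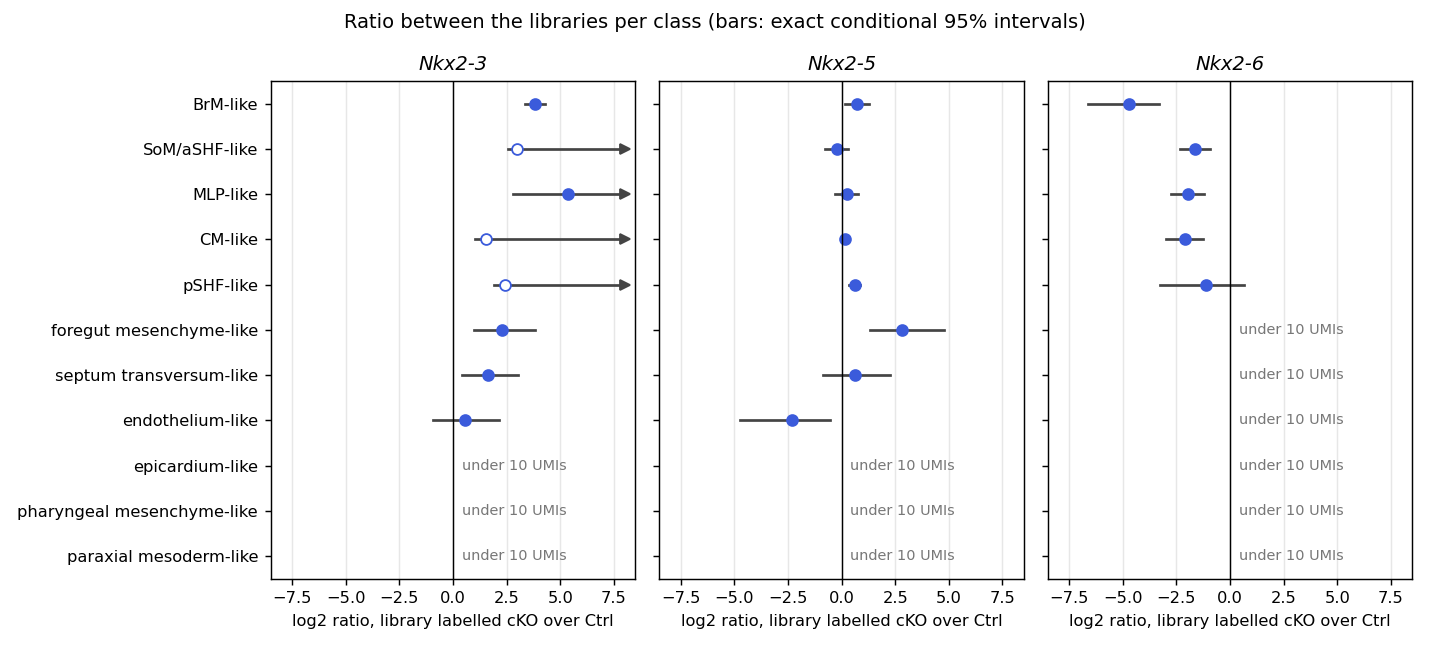
Log2 ratio of CPM (library labelled cKO over library labelled Ctrl) of the 3 genes in each class, with exact 95% intervals (counting error only). Open circles are bounds taken against the floor of 3 counts where a library had no UMI, arrows are intervals that run past the axis, and classes with under 10 UMIs have no point. Nkx2-3 lies to the positive side in BrM-like cells (3.80) and Nkx2-6 to the negative side (−4.71), while Nkx2-5 stays near 0 in CM-like cells (0.17).

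**Figure D3:**
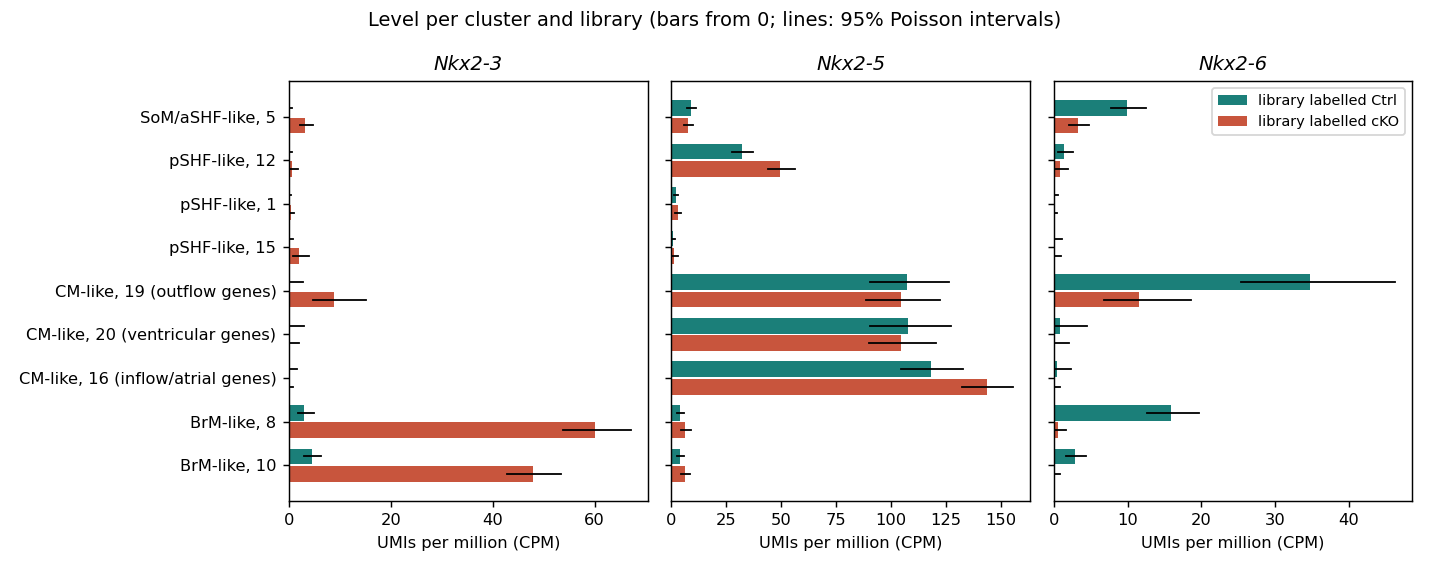
Level of the 3 genes in the clusters that make up the main classes, in CPM with exact 95% intervals (counting error only), in both libraries. Both BrM-like clusters (8 and 10) show the higher Nkx2-3 and the lower Nkx2-6 of the library labelled cKO, and Nkx2-6 within CM-like cells is confined to cluster 19 apart from single UMIs in clusters 16 and 20.

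SoM/aSHF-like cells, 459 and 504 in number, also had less Nkx2-6. The library labelled Ctrl had 74 UMIs of it, a level of 9.93 CPM (7.79 to 12.5). The library labelled cKO had 24 UMIs, a level of 3.21 CPM (2.05 to 4.77), 3.1-fold lower (1.93 to 5.13), a log2 ratio of −1.63. Thinned shares were 5.30% and 1.39%, and unthinned shares 10.9% and 3.77% at median depths of 15405 and 14429 UMIs. Here the gene was still detected above background in both libraries. Nkx2-5 was close to even at 8.85 against 7.61 CPM, a log2 ratio of −0.22 (−0.75 to 0.32). Of the 2 members past the filter, 0 were higher and 1 was lower by the 2-fold rule, where 0.876% and 3.14% of 9362 features were. Here too nothing is read from the count, since the members were chosen on these ratios. The log2 ratio of Nkx2-6 was −2.42 in Xist-only and −1.06 (−2.29 to 0.06) in Y-only cells. The epithelial markers Krt8, Krt18 and Spint2 are also expressed in this class, and the 7 summed to 319 and 466 CPM.

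CM-like cells were the main site of Nkx2-5. They held 57.0% of its UMIs in the library labelled Ctrl and 62.4% in the library labelled cKO, in 4.13% and 5.15% of the kept cells. The level was 112 CPM (103 to 122, 558 UMIs) in 272 cells and 126 CPM (119 to 135, 950 UMIs) in 462, a log2 ratio of 0.17 (0.02 to 0.32). It was detected in 39.8% (33.9 to 45.9) and 47.2% (42.5 to 51.9) of thinned cells, and in 76.5% and 78.1% of cells without thinning. The paraxial mesoderm-like background was 0.478% and 0.604%. This ratio changed sign under other treatments of the cells, with −0.09 when presumed doublets were kept and −0.12 when classes were taken from the markers of each cell. Of the 2 members past the filter in CM-like cells, 0 were higher and 1 was lower, against 0.806% and 2.42% of 9551 features. Nothing is read from this count, since the members were chosen on these ratios.

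The lower member was Nkx2-6, and its UMIs sat in one kind of cardiomyocyte. In CM-like cells as a whole it went from 9.68 (7.13 to 12.8, 48 UMIs) to 2.26 CPM (1.32 to 3.62, 17 UMIs), 4.28-fold lower (2.42 to 7.93). Cluster 19, where 6 of 6 outflow genes (Tdgf1, Isl1, Sema3c, Rspo3, Wnt11, Bmp4) passed as markers, held 46 of the 48 and all 17 of the 17. Its level there was 34.7 CPM (25.4 to 46.3) in 76 cells and 11.6 CPM (6.75 to 18.5) in 88, a log2 ratio of −1.58 (−2.48 to −0.75). Thinned shares were 17.1% and 4.6%. Xist-only cells went from 47.9 to 12.8 CPM and Y-only cells from 27.7 to 12.4. Other lists moved in this cluster as well, and their part in the result was not tested. Of 7 epithelial markers 5 and 6 had a UMI, with Cldn6 at 0 in both, and they summed to 487 and 1304 CPM. Of 8 BrM markers 6 and 4 had a UMI, with a sum of 245 and 98.1 CPM, and the erythroid list summed to 0 and 131 CPM. The ventricular cluster 20, with Myl2, Myl3, Irx4 and Hey2, and cluster 16, with 4 of 6 inflow or atrial genes, each had 1 Nkx2-6 UMI against 0. Nkx2-5 did not follow this split. It was 107 against 104 CPM in cluster 19 and 108 against 104 CPM in cluster 20, and 118 against 143 CPM in cluster 16 (log2 ratio 0.28, 0.08 to 0.49). The cells of each cluster are not equally shared, since cluster 16 held 136 cells of the library labelled Ctrl and 277 of the other.

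In pSHF-like cells Nkx2-5 was somewhat higher in the library labelled cKO. It went from 214 UMIs in 1135 cells to 287 in 1175, or 10.5 (9.11 to 12) against 16.1 CPM (14.3 to 18), with a log2 ratio of 0.62 (0.36 to 0.88), short of 2-fold. Most of it lay in cluster 12, whose leading genes include Wnt2, Osr1 and Gata5, at 32.1 against 49.6 CPM. The other clusters of the class had 1.99 against 2.76 and 0.606 against 1.26 CPM. Thinned shares in cluster 12 were 16.4% and 20.5%, with overlapping intervals. Xist-only and Y-only cells of cluster 12 had log2 ratios of 0.49 and 0.95. The 11 cardiomyocyte markers summed to 222 and 520 CPM in pSHF-like cells, and their part in the result was not tested. Nkx2-5 was the 1 member past the filter, and 0 were called in either direction, where 0.641% of 9202 features were higher and 1.02% lower. Nkx2-6 had 10 against 4 UMIs, a log2 ratio of −1.13 (−3.25 to 0.67).

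Foregut mesenchyme-like cells, with Barx1 and Foxf1, had more of both Nkx2-3 and Nkx2-5 in the library labelled cKO. Nkx2-3 went from 6 UMIs in 300 cells to 32 in 401, or 1.14 against 5.52 CPM (log2 ratio 2.27, 1.0 to 3.82). With all barcodes it was 15 UMIs against 32, a log2 ratio of 1.01 (0.08 to 2.0). Nkx2-5 went from 4 to 31, or 0.761 against 5.35 CPM (log2 ratio 2.81, 1.31 to 4.78). Both were past the filter only through the library where they were high, and nothing is read from their count beside the 0.784% of 9182 features that were higher and 2.71% that were lower. Other lists moved in this class too, and their part in the result was not tested. Of 7 epithelial markers 7 and 6 had a UMI, with Cdh1 at 0 in the library labelled cKO, and they summed to 199 and 319.9 CPM. Of 11 cardiomyocyte markers 10 had a UMI in each library, with sums of 119.8 and 185 CPM, and the erythroid list, with 1 and 4 of 8 markers, summed to 0.19 and 154 CPM. The higher levels were seen in Xist-only cells. In 140 against 288 such cells Nkx2-3 had 1 and 30 UMIs, and Nkx2-5 had 2 and 30. In 134 against 87 Y-only cells Nkx2-3 had 5 and 2 UMIs (log2 ratio −0.57, −3.96 to 2.04), and Nkx2-5 had 2 and 1 (−0.24, −6.13 to 4.02). The latter intervals are too wide to say whether the ratios held in both sets of cells, each from a single embryo per library.

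In MLP-like cells, 1347 and 1894 in number, the values depended on where the class was drawn. Nkx2-6 was 2.67 (2.05 to 3.43) against 0.684 CPM (0.418 to 1.06), 3.91-fold lower, from 62 and 20 UMIs. None of the 3 reached 5 CPM in a library with these clusters, so 0 passed the filter, beside 0.697% higher and 2.43% lower among 9327 features. Under 5 alternatives Nkx2-6 in the library labelled Ctrl was above 5 CPM, at 8.17 without integration, 9.42 with clusters of the first pass, 6.31 at resolution 0.6, 8.77 at resolution 1.6 and 6.16 with presumed doublets kept. It would then have passed the filter and been called lower, with log2 ratios of −2.94 to −3.41. Nkx2-3 reached 6.14 CPM in the library labelled cKO without integration, from 0 UMIs against 120, a log2 ratio of at least 4.81, and would have been called higher. Nkx2-5 had no stable direction in this class. It was 2.16 against 2.53 CPM, a log2 ratio of 0.23 (−0.31 to 0.78), and −0.58 (−1.08 to −0.07) without integration and 0.82 with clusters of the first pass.

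Other classes held few UMIs. In endothelium-like cells Nkx2-5 had 18 against 3 UMIs, 2.78 against 0.555 CPM, a log2 ratio of −2.33 (−4.73 to −0.55). Of these, 12 against 0 lay in cluster 14 and 6 against 3 in cluster 17. Septum transversum-like cells had 7 against 33 Nkx2-3 UMIs, a log2 ratio of 1.63 (0.42 to 3.05).

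Order of the classes differed by gene. For Nkx2-5, CM-like cells stood far above pSHF-like cells in both libraries. In the library labelled Ctrl pSHF-like (10.5 CPM) and SoM/aSHF-like cells (8.85, 6.85 to 11.3) overlapped. Their order followed the class rule, with 12.9 against 5.46 CPM with clusters of the first pass and 3.16 against 10.4 with classes from the markers of each cell. BrM-like cells (3.74) overlapped endothelium-like (2.78) and MLP-like cells (2.16). For Nkx2-6 in the library labelled Ctrl, SoM/aSHF-like (9.93), CM-like (9.68) and BrM-like cells (8.57) could not be ordered with these clusters. Under the 5 alternatives named for MLP-like cells, BrM-like cells had 4.45 to 4.83 CPM, less than either of the other two, for example 4.55 beside 9.75 and 9.11 without integration. MLP-like cells (2.67) stood below all of them with these clusters, but above BrM-like cells under those alternatives, at 8.17 CPM without integration. The order of Nkx2-6 in the library labelled cKO was SoM/aSHF-like (3.21) and CM-like (2.26), which overlapped, then MLP-like (0.684) and BrM-like cells (0.328), which overlapped too.

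**Figure D4:**
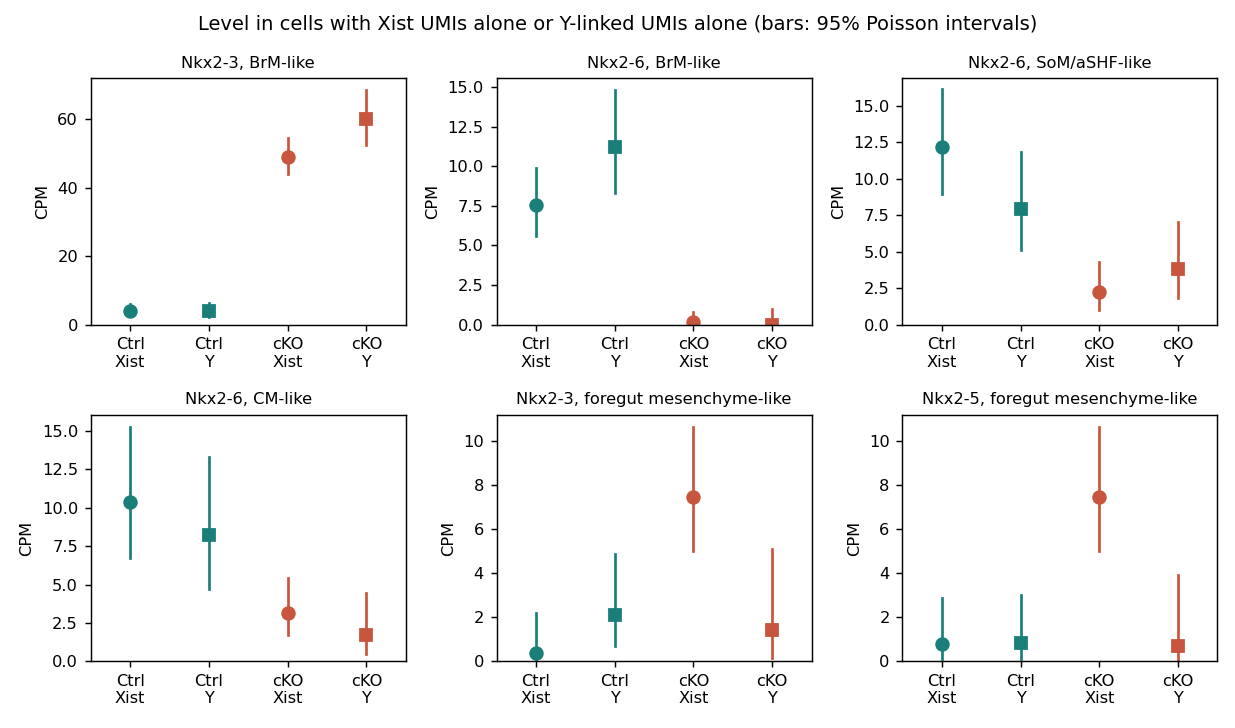
Levels of the 3 genes in CPM with exact 95% intervals (counting error only), for cells with Xist and no Y-linked UMI and for cells with Y-linked UMIs and no Xist, in both libraries. Each set comes from a single embryo per library. In BrM-like cells both sets show more Nkx2-3 in the library labelled cKO (48.9 and 60.1 CPM against 4.13 and 3.88), while in foregut mesenchyme-like cells the Xist set does and the Y set rests on at most 5 UMIs a gene and library.

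Few cells had UMIs of more than 1 of the 3 genes. Among thinned BrM-like cells of the library labelled Ctrl, 0 of 684 had both Nkx2-3 and Nkx2-6, where 3 counts of the total come to 0.439%, the exact binomial upper bound is 0.538% and the product of the single shares is 0.0846%, so nothing is read from the 0, and 2 had both Nkx2-3 and Nkx2-5. In the library labelled cKO 10 of 832 had Nkx2-3 with Nkx2-5 (1.20%, 0.578 to 2.20), beside 0.637% as the product of the single shares. Without thinning, all 4 BrM-like cells with a Nkx2-6 UMI in the library labelled cKO also had Nkx2-3, which was in 33.5% of these cells. In SoM/aSHF-like cells of the library labelled Ctrl, 5 of 453 thinned cells had Nkx2-5 with Nkx2-6 (1.10%, 0.359 to 2.56), beside a product of 0.269%, and in the library labelled cKO 0 of 502 did. With presumed doublets kept the former share was 0.215%, so its excess over the product was not stable. In cluster 19 of the library labelled Ctrl, 22 of 76 unthinned cells had both Nkx2-5 and Nkx2-6 (28.9%, 19.1 to 40.5), near the product of 27.1%. Deeper cells show more of every gene, so an unthinned share also follows depth.

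Markers of the cells positive for a member were set beside those of the whole class in the same library. Nkx2-6 was read in the library labelled Ctrl and Nkx2-3 in the library labelled cKO. The positive cells of these genes are therefore not compared with each other. In BrM-like cells of the library labelled Ctrl, Isl1, a factor of second heart field progenitors, was found in 26 of 33 thinned Nkx2-6-positive cells (78.8%, 61.1 to 91.0) and in 58.5% of all thinned cells. Nkx2-3-positive cells of the library labelled cKO had Tlx1, a homeobox gene needed for the spleen, in 57 of 152 (37.5%, 29.8 to 45.7), where it was in 12.4% (10.2 to 14.8) of all thinned cells. They had Isl1 in 30.3% (23.1 to 38.2) against 18% of all. Tbx1 went the other way. It was in 17.8% (12 to 24.8) of the Nkx2-3-positive cells and in 33.4% (30.2 to 36.7) of all, with 27 cells having both. Cells of 1 library are not replicates, and these shares describe that library.

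**Figure D5:**
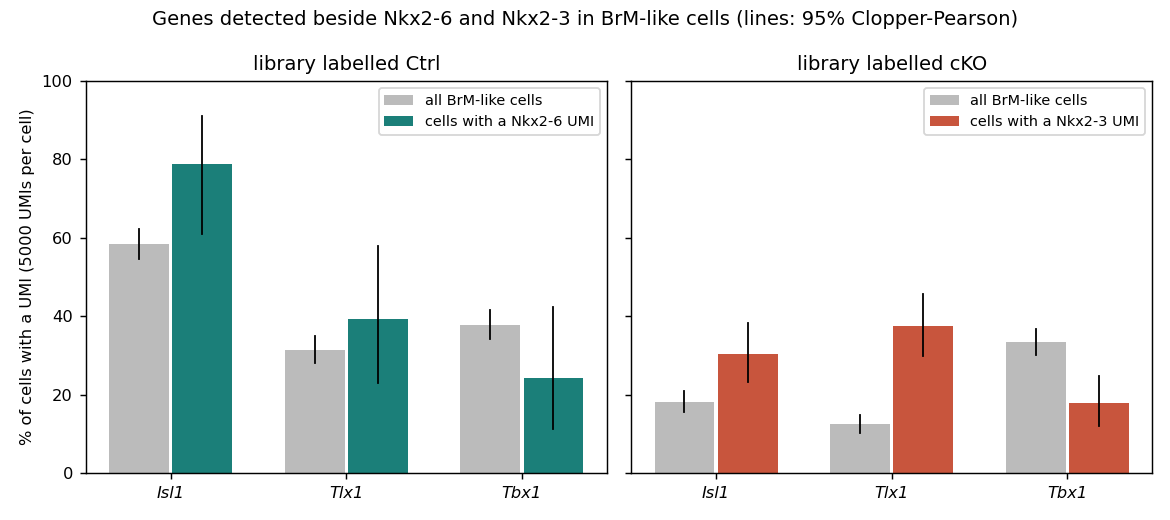
Percent of BrM-like cells with a UMI of Isl1, Tlx1 or Tbx1, among cells positive for a member and among all cells of the class, after thinning to 5000 UMIs per cell, with Clopper-Pearson 95% intervals. In the library labelled cKO, Nkx2-3-positive cells have more Tlx1 (37.5% against 12.4%) and less Tbx1 (17.8% against 33.4%) than the class as a whole.

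The known partners, targets and inducers of the NK2 genes were read from lists. In BrM-like cells, of 12 cardiac transcription factor partners 6 passed the filter, 0 were higher and 4 lower, namely Isl1 (log2 ratio −2.44), Mef2c (−1.72), Hand2 (−1.14) and Meis1 (−1.03). Their median was −1.09, beside −0.13 over all features that passed. Of 9 signals of heart field induction 6 passed and all 6 were lower, with Fgf10 (−5.36), Bmp7 (−2.82), Wnt5a (−2.58) and Fgf8 (−2.19) first and a median of −2.38. Among the gut and spleen mesenchyme genes Tlx1 was lower (−1.70). Of 12 heart genes known downstream of Nkx2-5, 4 passed and 2 were higher, Popdc2 (1.48) and Actc1 (1.47), the cardiac actin.

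Actc1 was also past 2-fold in SoM/aSHF-like (1.42), MLP-like (1.15), pSHF-like (1.12) and foregut mesenchyme-like cells (1.02), in septum transversum-like (1.98) and epicardium-like cells (1.31), and in paraxial mesoderm-like cells, where it was 5.34 against 17.8 CPM (1.73). The last of these classes had 7 and 2 Nkx2-5 UMIs. The 11 cardiomyocyte markers summed to 27.9 and 66.8 CPM there, 536 and 818 CPM in septum transversum-like and 99.9 and 131 CPM in MLP-like cells, and their part in the Actc1 values was not tested. In CM-like cells all 12 downstream genes passed, 0 were higher and 2 lower, Nppb (−1.52) and Bmp10 (−1.25), with a median of −0.17 beside −0.10 over all features. All 12 partners passed there too and 0 were called, with a median of −0.43. Tlx1 was lower in CM-like cells (−3.61) and the stomach factor Barx1 higher (1.26). Of the signals in CM-like cells, 1 of 9 was lower, Fgf10 (−1.24).

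In SoM/aSHF-like cells 1 of 10 partners was lower, Tbx5 (−1.47), and 3 of 9 signals, Fgf10 (−2.05), Wnt5a (−1.68) and Wnt11 (−1.57), while of 5 gut and spleen genes Wt1 (−1.15) and Foxf1 (−1.01) were. In pSHF-like cells 0 of 11 partners were called, and Fgf10 (−1.16) and Wnt5a (−1.11) were lower among 7 signals. In MLP-like cells 0 of 8 partners were called. Fgf10 (−3.66), Wnt5a (−1.97) and Fgf8 (−1.83) were lower among 7 signals, and Foxf1 (−1.55), Wt1 (−1.41) and Foxf2 (−1.19) among 6 gut and spleen genes. Foregut mesenchyme-like cells differed, with Hand2 (2.48) and Hand1 (2.04) higher among 10 partners and 0 of 6 signals called. Fgf10, a growth factor of the second heart field, was thus lower by the rule in 5 of these 6 classes.

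Other NK2 genes were scarcely transcribed in this lineage. Over all kept cells the UMIs numbered 4 and 4 for Nkx2-1, the thyroid and lung factor, 19 and 14 for Nkx2-2, 0 and 0 for Nkx2-4, and 42 and 1 for Nkx2-9, and none passed the filter in a class. Stc1, which lies 130 kb from Nkx2-6, went from 7.49 to 2.87 CPM in BrM-like cells (log2 ratio −1.39, −1.99 to −0.81). The neighbours of Nkx2-3 stayed within 2-fold in BrM-like cells, with log2 ratios of 0.38 (0.20 to 0.56) for Got1 and 0.13 (−0.29 to 0.55) for Slc25a28, and so did Bnip1 beside Nkx2-5 (0.14). Of the wider NK family, Nkx6-1 was lower in foregut mesenchyme-like cells (−1.52). A transcript that overlaps Nkx2-6, 1700092C10Rik, had 11 and 8 UMIs over all kept cells. How many reads the overlap took from Nkx2-6 was not tested.

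Genes whose levels followed each member across clusters were ranked by Pearson r of log2(CPM + 5), taken within each library over 22 and 23 clusters of at least 50 cells and averaged. The clusters share a library and neighbouring ones share cell types, so the values are descriptive. Nearest to Nkx2-3 were Cxcr4 (0.78), a chemokine receptor, Plcxd3 (0.72), Hlx (0.71), Igfbp3 (0.68) and Col13a1 (0.67). Nkx2-5 was followed much more closely, by RP23-455C13.7 (0.94), Alpk3 (0.92), Casz1 (0.92), Rassf5 (0.92) and Cacna1d (0.92), of which Alpk3, Casz1 and Cacna1d act in heart muscle. Nearest to Nkx2-6 were Rab3c (0.80), Tdgf1 (0.77), an outflow gene, 2010300C02Rik (0.77), RP23-16L19.4 (0.75) and Col9a2 (0.75). Some averages join unlike values of the libraries labelled Ctrl and cKO. For Nkx2-6 these were 0.69 and 0.92 with Rab3c, 0.67 and 0.87 with Tdgf1, and 0.89 and 0.65 with 2010300C02Rik. For Nkx2-3 they were 0.87 and 0.54 with Hlx.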

How the data were processed

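The deposited values are raw counts of UMIs per gene and cell barcode, which the authors made with Cell Ranger 3.1.0 on mm10, per the submitters' processing notes, and which hold the barcodes called as cells without normalization. Depth was 132017331 UMIs in the library labelled Ctrl and 162874391 in the library labelled cKO. Cells with under 1000 genes or over 10% mitochondrial UMIs were removed (411 and 508), and then the highest Scrublet scores (scanpy 1.11.5) at 0.8% per 1000 cells (416 and 804).

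Clustering used Seurat 5.3.0 under R 4.3.3 with 2000 variable genes, 30 dimensions, reciprocal principal component integration and resolution 1. NK homeobox, Tbx1, study-discussed, mitochondrial, ribosomal, haemoglobin and sex-linked genes (170) never entered it, and 1462 genes that differed 2-fold between the libraries within 11 provisional classes were removed before a second pass. A cluster took a class name from at least 3 markers and 50% of a list, with thresholds set after the data had been seen, and 4 clusters stayed unnamed. The names were rebuilt here, and this may set the classes apart from the populations of the study.

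UMIs were summed per class and library. Sums carry exact Poisson intervals, ratios exact conditional intervals and shares Clopper-Pearson intervals (scipy 1.17.1), all at 95%. With 1 library per group no test was made, and no model was fitted to single cells as the study did. A feature is called past a 2-fold ratio with 5 CPM in a library and 30 UMIs over both. The code was tested on simulated data. The members and gene lists were chosen with earlier results of these data known. Named genes are the members, the listed genes past the 2-fold rule (up to 6 per list and class) and the 5 genes nearest to each member by r, among genes reaching 20 CPM in a cluster. Alternatives covered clustering, doublets, filters, class rule, scaling, background, sex and thinning. Some listed genes are not reported here.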

Additional observations from a re-analysis of the deposited data

How the results depend on the processing

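The higher Nkx2-3 of BrM-like cells (log2 ratios 3.41 to 3.95) and the lower Nkx2-6 of BrM-like and CM-like cells kept their direction under every alternative run, though Nkx2-6 in BrM-like cells was only bounded, at −1.49 or below, when classes came from the markers of each cell (12 UMIs against 0). With classes from the markers of each cell, log2 ratios moved past their main interval to −2.55 for Nkx2-6 in SoM/aSHF-like, −0.12 for Nkx2-5 in CM-like, 0.26 for Nkx2-5 in pSHF-like and 0.48 for Nkx2-5 in foregut mesenchyme-like cells, and Nkx2-3 in the last had no value. In Y-only cells they were 1.45 for Nkx2-5 in BrM-like, 0.35 in CM-like and 0.89 in pSHF-like cells, and turned to −0.57 for Nkx2-3 and −0.24 for Nkx2-5 in foregut mesenchyme-like cells. In Xist-only cells they were −2.42 for Nkx2-6 in SoM/aSHF-like and 4.23 for Nkx2-3 in foregut mesenchyme-like cells. Nkx2-5 in CM-like cells was at −0.086 with presumed doublets kept and −0.091 with all barcodes, and it was at 0.35 in pSHF-like cells with clusters of the first pass. The cause was not tested. In MLP-like cells Nkx2-6 ranged from −3.41 to −1.17 and Nkx2-5 from −0.58 to 0.82, turning negative without integration, at both other resolutions (−0.32 at 1.6), with presumed doublets kept, with all barcodes (−0.28) and as a mean over cells. Leaving out cells with barcodes found in both libraries was added after seeing the data and moved no ratio past its interval. Of 66 alternative values of shares and co-detection, under other thinning, at least 2 UMIs, first-pass clusters or presumed doublets kept, 32 lay outside the main interval. No paired analysis was possible because each group has 1 library. Depth limits ratios from few UMIs, among them the Y-only values of foregut mesenchyme-like cells (5 and 2, and 2 and 1 UMIs) and the 0.48 above (1 and 2 UMIs).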
